A study of Rattus norvegicus with 30 samples.

Results

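This report follows the lungs of rats that had inhaled copper oxide nanoparticles at 13.2 mg/m3, the higher of 2 doses, from day 6 to day 28 of the study. The arrays were chosen by their titles: 5 rats sampled on day 28 were set against 5 other rats sampled on day 6, which makes 10 of the 30 rats of the series. All rats were adult male Wistar rats of the outbred strain HsdCpb:WU, 8 weeks old at arrival and kept for 2 weeks before they were exposed. Exposure was nose-only, equivalent to 6 hours a day, on 5 consecutive days. Lungs were taken 1 day (day 6) or 22 days (day 28) after the last exposure, so the day 28 rats were also 22 days older. A further 10 rats, 5 on each day, breathed air only and give the change over the same 22 days without particles. Their labels also name the nanoparticle as the treatment, at a dose of 0 mg/m3, and following the exposure protocol they are called air rats here. The comparison asks how far the changes seen just after exposure were still present after recovery.

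Inhaled metal oxide particles settle in the small airways and alveoli, where macrophages and epithelial cells meet them first. These cells release chemokines, small secreted proteins that call monocytes, neutrophils and lymphocytes out of the blood, and acute phase and antimicrobial proteins that coat the airway surface. Dissolved copper is bound by metallothioneins, and oxidative damage is met by enzymes under the transcription factor Nrf2. When exposure stops, recruited cells leave or die, dividing cells replace lost epithelium, and the alveolar wall regains its flat type I cells.

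Each array gives, for each probe, the log2 ratio of the rat's lung RNA (Cy5) to a common reference RNA (Cy3); this log2 ratio is called the level below, and levels of different genes cannot be set against each other. Over the 30 arrays the median Cy5 intensity lay between 216 and 432, and 59.5% to 68.4% of probes were well above background. Among the 4 groups used, median correlations of a rat with its own group across genes, which are not independent replicates, lay between 0.936 and 0.980. Air rat 4 of day 6 (0.936) and air rat 8 of day 28 (0.956) stood lowest among the air rats, whose others lay between 0.975 and 0.980. The 9 lung markers fixed for a check of the tissue were all measured. Surfactant protein C (Sftpc) had a level of 9.84 ± 0.40 on day 6 and 10.11 ± 0.31 on day 28 at the high dose (SD, n = 5 rats each). The liver, pancreas and fat genes Apoa1, Cpa1 and Adipoq had means between -1.59 and 0.06 and albumin (Alb) -6.35 and -4.73; none of them passed the test between the days.

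Between day 6 and day 28, 6180 of 18411 genes tested (33.6%) passed limma's test at the high dose, at an adjusted p under 0.05 (Benjamini-Hochberg). Of these, 3681 (20.0% of all genes tested) were lower and 2499 (13.6%) higher on day 28. The large changes ran downwards: 619 genes fell and 144 rose at least 2-fold, and 121 fell and 10 rose at least 4-fold. The 5 rats of one day did not overlap the 5 of the other for 3261 genes (17.7%). In air rats 541 genes (2.94%) passed over the same time, 341 higher and 200 lower. The difference between both changes, tested as an interaction, passed for 3085 genes (16.8%), 2073 (11.3%) more negative and 1012 (5.50%) more positive at the high dose. On day 28 itself the high dose differed from air for 34 genes (0.185%), 14 higher (0.0760%) and 20 lower (0.109%), against 6731 (36.6%) on day 6; both comparisons share samples with those above. At an unadjusted p under 0.05, 2775 genes differed on day 28. That count of 34 depended on air rat 8, without which it was 326 (89 higher and 237 lower), with all 34 among them; without air rats 9 or 6 it was 11 and 12, and without high dose rats 82, 81, 80 or 84 it was 15, 21, 60 and 111.

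The split between higher and lower calls over time at the high dose depended on how the arrays were scaled. Of the called genes 40.4% were higher with loess-normalized ratios, 20.5% of 4502 after centring on the median, 53.9% of 7113 with the Cy5 signal alone and 3772 of 6991 with the authors' deposited values. For the interaction these shares were 32.8% with loess-normalized ratios, 48.8% with Cy5 alone and 49.9% with the deposited values. The median change of all genes lay between -0.10 and 0.04 under these 4 scalings. The lungs were measured as whole tissue, in which fewer cells of a type and less RNA per cell cannot be told apart.

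**Figure D1:**
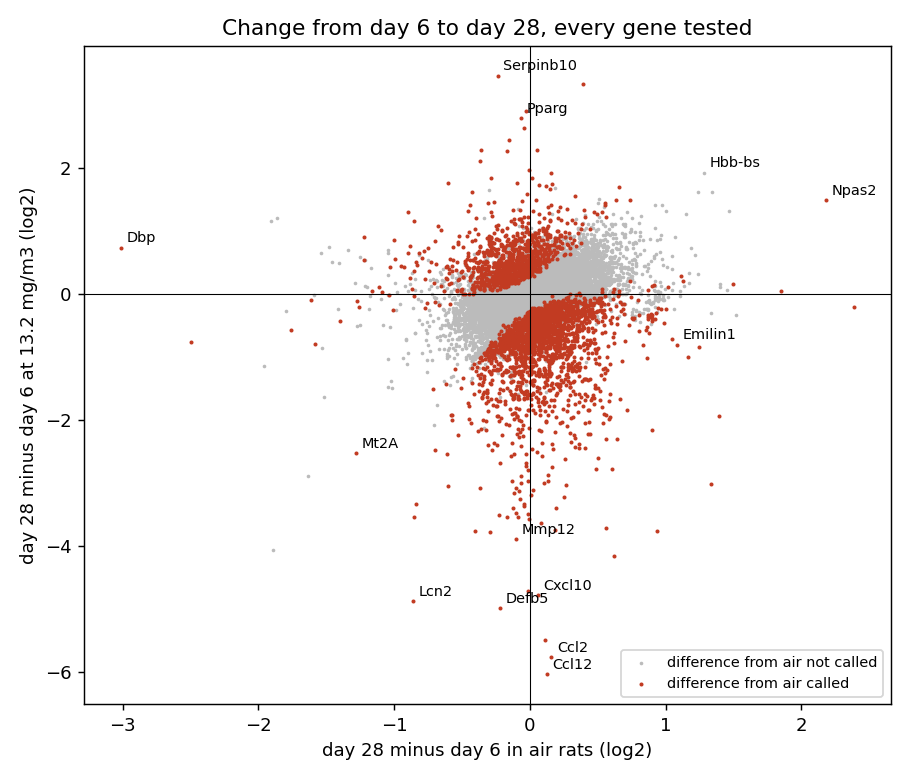
Change of each of the 18411 genes tested from day 6 to day 28, in log2 units: air rats on the horizontal axis and rats exposed to 13.2 mg/m3 on the vertical axis, 5 rats per group and day. Red points are the 3085 genes whose change differed between the 2 treatments; Ccl12 and Ccl2 lie lowest, at -6.03 and -5.77, and Serpinb10 highest, at 3.46, all with little change in air.

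Chemokines made the largest decreases. Ccl12, Ccl2 and Ccl7, which attract monocytes through the receptor Ccr2, were 65.5-fold, 54.5-fold and 45.0-fold lower on day 28. Ccl2 had levels of 1.13, -0.05, 1.61, 1.89 and 1.33 in the 5 rats of day 6 and -4.25, -3.73, -4.11, -5.27 and -5.55 in those of day 28. Every rat of day 28 lay at least 3 log2 units below every rat of day 6, and the day 28 rats overlapped the air rats, whose means were -4.52 and -4.36. The change was -5.77 ± 0.42 (log2, SE, n = 5 rats per day, adjusted p = 2.07e-11 in limma's fit) against 0.16 ± 0.42 in air. For Ccl12 the day 6 rats had 7.30, 5.55, 7.40, 7.37 and 6.63 and the day 28 rats 1.36, 0.54, 0.82, 0.85 and 0.51, a change of -6.03 ± 0.34 (adjusted p = 1.44e-13). Ccl7 fell by 5.49 ± 0.31 (adjusted p = 1.59e-13). In all 3 genes rat 76 had the lowest level of the day 6 group.

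Of 29 chemokines measured from a list of 31, 18 fell and 4 rose, with a median change of -0.72 beside -0.01 over all genes tested; in air rats the median was -0.03 and 1 member rose. The interaction with air passed for 16 members in the negative and 3 in the positive direction. On day 28 no member differed from air, where 0.185% of all genes did. The median difference of the list from air was -0.09 on that day and 0.78 on day 6. The ligands of Cxcr3, a receptor on activated T cells, are induced by interferon. One of them, Cxcl10, was at 3.50, 3.12, 3.47, 3.23 and 2.48 on day 6 and -2.02, -0.89, -1.76, -1.94 and -1.498 on day 28, without overlap, and fell by 4.78 ± 0.27 (adjusted p = 1.59e-13). Cxcl11 was not well above background in any rat of day 28 and was at least 8.57-fold higher on day 6 in normalized Cy5 signal, against 6.66-fold in the ratio to the reference (adjusted p = 5.07e-16; with 1 dye orientation this is open to dye bias). Cxcl9, the remaining ligand, fell by 0.86 ± 0.17. Ccl17 and Ccl22, which attract T cells through Ccr4, fell by 3.54 ± 0.15 and 2.80 ± 0.15 (adjusted p = 5.57e-16 and 4.20e-14). The neutrophil attractants Cxcl1 and Cxcl2 fell by 3.47 ± 0.22 and 2.47 ± 0.28. Those that rose were Ccl11 (eotaxin, an attractant of eosinophils, 1.61 ± 0.28), Ccl6 (1.20 ± 0.33), Cxcl14 (0.84 ± 0.16) and Ccl24 (0.42 ± 0.11).

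The promoters of Ccl12, Ccl7 and Cxcl10 are shown, which are among the 16 genes with the largest decreases. Of those 16, 14 have a promoter in the RefSeq table used here (assembly GRCr8), in which Ccl2 is not listed. Ccl12 and Ccl7 fell most among those 14. Cxcl10 was picked for the interferon element marked below, as the largest decrease outside the interferon list that holds it. Each is the sequence before the annotated start on the gene's strand, 5′ to 3′: Ccl12 at chr10:67567726-67567875 and Ccl7 at chr10:67513945-67514094, 150 bases each, and Cxcl10 at chr14:15988816-15989065, 250 bases, all 3 on the plus strand. Capitals mark TATAAA, the core of a TATA box, and in Cxcl10 also GAAA, any 2 bases and GAAA, the core of the element bound by interferon-activated factors (ISRE).
Ccl12: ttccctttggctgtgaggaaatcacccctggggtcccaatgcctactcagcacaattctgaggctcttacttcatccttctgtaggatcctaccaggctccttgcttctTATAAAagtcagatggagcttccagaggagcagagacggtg
Ccl7: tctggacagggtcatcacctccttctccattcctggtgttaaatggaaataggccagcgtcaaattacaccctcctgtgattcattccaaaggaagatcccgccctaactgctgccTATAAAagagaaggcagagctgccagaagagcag
Cxcl10: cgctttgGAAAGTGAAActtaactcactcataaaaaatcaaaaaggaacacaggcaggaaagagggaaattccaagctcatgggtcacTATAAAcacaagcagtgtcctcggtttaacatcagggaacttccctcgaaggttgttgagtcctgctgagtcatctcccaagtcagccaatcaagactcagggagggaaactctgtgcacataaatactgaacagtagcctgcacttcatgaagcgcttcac
Searched on both strands over the 250 bases before the start, TATAAA occurred in 9 of the 24 chemokine promoters found (37.5%) and in 13.1% of all 27457 promoters. A form of the NF-kB site (GGGA, any base, TT, any base and CC) occurred in 3 chemokine promoters (12.5%, those of Cxcl1, Cxcl2 and Cxcl6) and in 0.994% of all. Other forms of that site were not searched, so promoters without this match may still hold one. The ISRE core occurred in 2 chemokine promoters (8.33%, those of Ccl19 and Cxcl10) and in 3.29% of all. Among the 14 promoters of the largest decreases, this NF-kB form occurred in 0 and the ISRE core in 3. These are matches of letters and were not tested as binding sites.

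More chemokine receptors fell than rose. Among 15 chemokine receptors 8 fell and 2 rose (median -0.56, -0.09 in air), the latter near the 13.6% of all genes. After centring on the median 8 fell and 1 rose, and the interaction was negative for 3 and positive for 1. Cxcr3, the receptor of Cxcl10 and Cxcl11, fell by 1.11 ± 0.16 (adjusted p = 5.57e-06) and was above background in 4 of 5 rats on day 28. The monocyte receptor Ccr2 fell by 0.60 ± 0.13. Cxcr1, a receptor for neutrophil chemokines, did the opposite: it was at -2.57, -2.56, -3.14, -1.80 and -2.55 on day 6, where 3 of 5 rats were above background, and at -0.48, 0.21, 0.30, -0.77 and -0.47 on day 28. It rose by 2.28 ± 0.30 (adjusted p = 1.12e-06) against -0.36 ± 0.30 in air, with an interaction of 2.64 ± 0.43 (adjusted p = 5.46e-05).

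Among 21 cytokine genes 8 fell and 3 rose, with a median of -0.16. Spp1 (osteopontin, secreted by activated macrophages) fell by 3.01 ± 0.24 (adjusted p = 9.08e-11). Il1b and Tnf, the first inflammatory cytokines of macrophages, fell by 1.85 ± 0.26 and 1.36 ± 0.30, and Csf1, the growth factor of macrophages, fell by 0.94 ± 0.12. Osm, a cytokine of the interleukin 6 family, fell by 0.85 ± 0.11 and was above background in 4 of 5 rats on day 28. Il33, an epithelial alarm cytokine, rose by 0.53 ± 0.16, Tgfb3 by 0.46 ± 0.17 and Il16 by 0.40 ± 0.07; of these the interaction with air passed for Il16 only, and after centring on the median no cytokine of the list rose.

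Secreted defence proteins of the airway and the acute phase were also among the largest decreases. Lcn2, which withholds iron from bacteria, was at 6.76, 5.75, 6.67, 6.11 and 5.97 on day 6 and 1.48, 1.17, 2.13, 1.09 and 1.02 on day 28, a 29.4-fold decrease (-4.88 ± 0.33, adjusted p = 6.34e-12). The beta-defensin Defb5 had 6.05, 5.50, 5.37, 5.73 and 5.38 and 0.80, 0.28, 0.78, 0.84 and 0.37, and fell by 4.99 ± 0.44 (adjusted p = 8.44e-10). Rats of 1 day lay close together in both genes, and the gap between the days was more than 3 log2 units. Orm1, an acute phase glycoprotein, fell by 3.16 ± 0.20, and Slpi, an inhibitor of neutrophil elastase, by 2.36 ± 0.31; Orm1 was above background in only 1 of 5 rats on day 28. Defb52, another beta-defensin, likewise was above background in 1 of 5 rats and fell by 3.54 ± 0.23. Of 19 members of this list 12 fell and 0 rose (median -0.90, 0.13 in air; interaction negative for 9).

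Complement followed: 12 of 20 genes fell and 1, Cfd, rose (0.91 ± 0.26), with a median of -0.62. C3, the central component, fell from 4.70, 4.63, 4.56, 4.63 and 4.30 to 1.72, 1.16, 1.86, 1.46 and 1.27, by 3.07 ± 0.20 (adjusted p = 1.74e-12), and the rats of both days were clearly separated. Cfi, which cuts active C3, fell by 2.40 ± 0.25, C6, a part of the membrane attack complex, by 2.19 ± 0.23, and the receptor C3ar1 by 1.27 ± 0.11, with 1 of 5 rats above background on day 28. Other secreted or epithelial genes among the largest decreases were the serine protease Prss30 (-3.78 ± 0.33), Serpina11 of the serpin family (-3.57 ± 0.19) and Bpifb1, an antibacterial protein of the airway lining (-3.34 ± 0.52).

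Interferon-induced genes fell almost as a block. Of 31 measured members of a list of 37, 29 fell and 1 rose, with a median of -1.67; in air the median was 0.14 and no member passed. The interaction was negative for 30 members, against 11.3% of all genes. Rsad2 (viperin), an antiviral enzyme, had 6.81, 6.36, 6.89, 7.01 and 6.31 on day 6 and 3.37, 2.34, 2.99, 3.25 and 2.64 on day 28 and fell by 3.76 ± 0.27 (adjusted p = 2.38e-11). Ifi27l2b, an interferon-induced mitochondrial protein gene, had 4.45, 4.07, 4.59, 4.89 and 4.38 and 0.30, 0.52, 0.75, -0.15 and 0.20 and fell by 4.15 ± 0.25 (adjusted p = 5.76e-13). Neither gene overlapped between the days. Ifit3 and Usp18, an antiviral protein and a brake on interferon signalling, fell by 3.76 ± 0.29 and 3.49 ± 0.28. Mx1, a GTPase against viruses, fell by 3.36 ± 0.30, Irf7, the factor that amplifies the response, by 3.11 ± 0.27, and Isg15, a ubiquitin-like tag, by 2.97 ± 0.32. Dhx58, a sensor of viral RNA, fell by 1.72 ± 0.12, and Slfn4 by 3.71 ± 0.31. The member that rose was Oas1b (0.40 ± 0.14), a paralog of the falling Oas1a (-2.06); after centring on the median no member of the list rose. No member differed from air on day 28, where 0.185% of all genes did. The median difference of the list from air was -0.20 on day 28 and 1.64 on day 6.

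The promoters of Rsad2, Ifit3, Irf7 and Ifi44 are shown because these genes fell together and GAAA, any 2 bases and GAAA (the ISRE core), searched on both strands in the 250 bases before the start, occurred in 15 of the 22 promoters found for the list (68.2%) and in 902 of all 27457 promoters (3.29%). The 150 bases before each start are printed on the gene's strand, 5′ to 3′, from GRCr8: Rsad2 at chr6:48788121-48788270 (minus strand), Ifit3 at chr1:241527176-241527325 (plus strand), Irf7 at chr1:205800024-205800173 (minus strand) and Ifi44 at chr2:243303841-243303990 (minus strand). Capitals mark the element, which here lies on the opposite strand. These 4 genes have the smallest adjusted p-values among list members that hold it within these 150 bases. Its presence in all 4 therefore follows from how they were picked.
Rsad2: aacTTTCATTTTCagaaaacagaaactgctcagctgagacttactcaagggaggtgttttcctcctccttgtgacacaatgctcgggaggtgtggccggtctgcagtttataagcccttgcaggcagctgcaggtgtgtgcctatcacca
Ifit3: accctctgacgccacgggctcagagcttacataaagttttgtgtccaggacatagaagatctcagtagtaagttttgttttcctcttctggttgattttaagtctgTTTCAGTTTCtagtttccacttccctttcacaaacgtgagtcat
Irf7: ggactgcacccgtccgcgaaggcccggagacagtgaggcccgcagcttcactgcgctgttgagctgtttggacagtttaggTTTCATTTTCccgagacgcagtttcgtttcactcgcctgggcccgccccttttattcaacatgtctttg
Ifi44: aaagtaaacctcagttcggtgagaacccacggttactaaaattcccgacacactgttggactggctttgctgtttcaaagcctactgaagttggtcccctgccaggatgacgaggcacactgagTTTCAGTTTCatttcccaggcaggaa
The list fell in each of the 4 slides (mean change -2.08 to -1.75 within a slide, from 1 or 2 rats per day).

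Of the macrophage and monocyte markers more fell than rose: 18 of 28 fell and 3 rose (median -0.98, -0.07 in air). Mmp12, the macrophage elastase, was at 3.10, 2.58, 3.25, 2.83 and 2.75 on day 6 and -1.37, -0.46, -1.13, -0.93 and -1.04 on day 28, where 4 of 5 rats were above background, and fell 14.8-fold (-3.89 ± 0.17, adjusted p = 5.14e-16). Siglec1, a sialic acid receptor of macrophages, fell by 2.87 ± 0.31. The integrin Itgam, found on monocytes and neutrophils, fell by 2.15 ± 0.19, and Fcgr1a, the high-affinity receptor for antibody, by 1.68 ± 0.15. Other macrophage genes did not fall: Marco and Car4 changed by 0.06 and 0.24 and did not pass the test, Mrc1 rose by 0.74 ± 0.22 and Clec7a, a receptor for fungal glucan, by 1.83 ± 0.31. The mean level of the list ranged from 0.79 to 1.78 in the rats of day 6, from 0.21 to 0.67 on day 28 and from -0.03 to 0.49 in the air rats of both days.

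Neutrophil markers gave 7 lower and 2 higher of 13 (median -0.68). Cxcr1, given above with the receptors, is 1 of the 2 that rose. Its rise of 2.28 and interaction of 2.64 were the largest of this list. S100a9, a subunit of the neutrophil protein calprotectin, had 6.86, 6.91, 5.72, 6.88 and 5.89 on day 6 and 4.35, 2.28, 3.27, 4.53 and 2.77 on day 28, without overlap, and fell by 3.02 ± 0.36 (adjusted p = 1.85e-07). In air rats S100a9 rose over the same time by 1.33 ± 0.36 (adjusted p = 0.0418), and its interaction of -4.35 ± 0.51 exceeded the change at the high dose; without air rats 4 and 8 together the air change was 1.14 (adjusted p = 0.0607 in limma's fit) and the interaction -4.16. Il1r2, a decoy receptor for interleukin 1, fell by 2.20 ± 0.15, S100a8 by 1.93 ± 0.29 and Csf3r, the receptor of the neutrophil growth factor, by 0.95 ± 0.19. Mmp9, a protease stored in neutrophil granules, changed by -0.19 and did not pass.

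Of the lymphocyte markers, those of T cells fell in the largest number. Of 20 T cell markers 17 fell and none rose (median -0.71, -0.09 in air), but the interaction with air passed for only 8. The costimulator Icos, above background in 4 of 5 rats on day 28, fell by 1.66 ± 0.16 (adjusted p = 4.88e-09), and Cd3g, a chain of the T cell receptor complex, by 1.33 ± 0.18. Cytotoxic markers gave 3 lower of 13, near the 20.0% of all genes: Ctsw (-1.16 ± 0.19), Klrk1 (-1.06 ± 0.18) and Gzmb (-0.89 ± 0.27); the natural killer receptor Ncr1 changed by -0.07 and did not pass. B and plasma cell markers gave 3 lower of 16, also near 20.0%, with a median of -0.02 that was 0.04 with Cy5 alone. Of these Blnk, an adaptor of B cell signalling, fell by 1.24 ± 0.13 (adjusted p = 2.11e-08), while Mzb1 (-0.44 ± 0.17, adjusted p = 0.0411) did not pass in 8 of 19 alternatives. Of 10 genes tied to lymphoid aggregates, Ltb (-1.13 ± 0.17), Ccr7 (-0.70 ± 0.12) and Cxcl13 (-1.19 ± 0.43, adjusted p = 0.0336) fell; the call of Cxcl13 was lost in 7 of the 10 fits that left out 1 high dose rat.

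Genes of antigen presentation fell in part: 8 of 16 class II and dendritic cell markers fell and Batf3 rose (0.37 ± 0.11). RT1-DMa, which loads peptides onto class II molecules, fell by 1.43 ± 0.12 and its partner RT1-DMb by 0.86 ± 0.13, while the invariant chain Cd74 changed by -0.16 and did not pass. RT1-DMa and Batf3 were the 2 members that still lay above air on day 28 (0.61 ± 0.12 and 0.52 ± 0.11, adjusted p = 0.0248 and 0.0356 in limma's fit); both calls were lost in 7 of 18 alternatives. Clec9a, a receptor of cross-presenting dendritic cells, fell by 1.19 ± 0.14. The class I gene RT1-A2 fell by 4.07 ± 0.83, but its levels lay at -2.44 in 1 and between 0.58 and 0.97 in 4 of the air rats of day 6, and rat 84 of day 28 had 0.44 where the other 4 had -2.54 to -1.75; its interaction did not pass (adjusted p = 0.224). Of 15 genes of alternative activation and type 2 inflammation, 10 fell and 3 rose (median -1.496). Slc26a4 (pendrin), an anion exchanger that airway epithelium makes in type 2 inflammation, was at 4.22, 3.66, 4.30, 4.29 and 4.22 on day 6 and 0.63, 0.43, 1.05, 0.54 and 0.53 on day 28 and fell by 3.50 ± 0.13 (adjusted p = 7.21e-17, the smallest of the named genes). Chi3l1, a chitinase-like protein, fell by 3.05 ± 0.29, and Arg1, the arginase of alternatively activated macrophages, by 1.68 ± 0.35. Mast cell genes went the other way: of 13 mast cell and eosinophil markers 4 rose and none fell, among them Kit (0.79 ± 0.19) and Gata2 (1.08 ± 0.23), but the interaction passed for Gata2 only (1.14 ± 0.33, adjusted p = 0.0153), and the median was 0.31 in air.

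**Figure D2:**
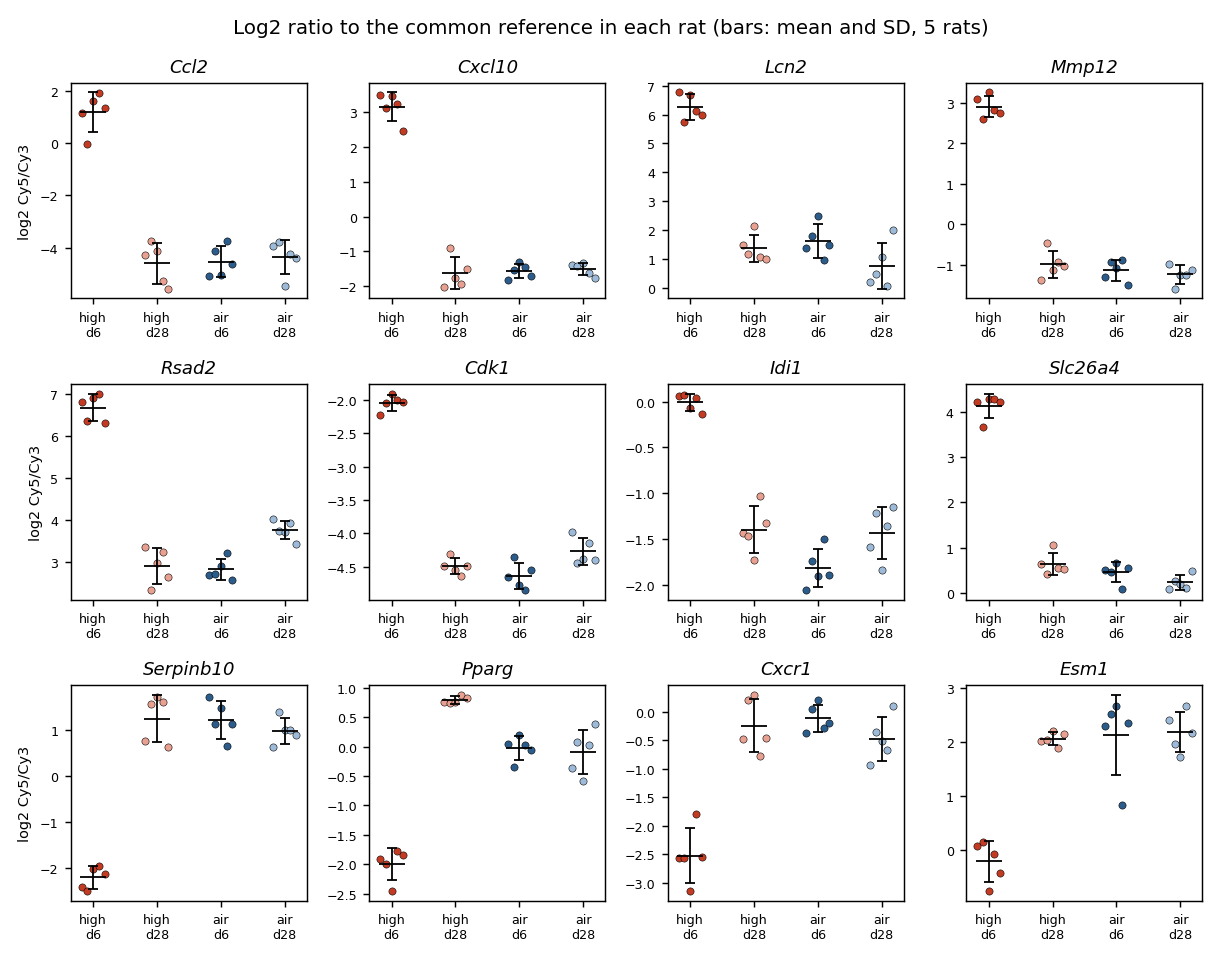
Level of 12 genes in each rat (points; log2 Cy5 over Cy3 on the vertical axis of each panel), at 13.2 mg/m3 and in air on day 6 and day 28, with the mean and SD of 5 rats. Ccl2, Cxcl10, Lcn2, Mmp12, Rsad2, Cdk1, Idi1 and Slc26a4 were high only in the high dose rats of day 6; Serpinb10, Pparg, Cxcr1 and Esm1 were low only there.

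Genes of cell division fell nearly without exception. Of 25 mitosis genes 23 fell and none rose, with a median of -1.36 beside 0.30 in air, and the interaction was negative for 23. Cdk1, the kinase that starts mitosis, had -2.23, -2.05, -1.91, -2.01 and -2.03 on day 6 and -4.48, -4.31, -4.55, -4.63 and -4.48 on day 28 and fell by 2.44 ± 0.13 (adjusted p = 3.37e-14). Rats of 1 day differed little in this gene, and the air means were -4.63 and -4.27. Cdca3, which helps degrade a mitotic inhibitor, fell by 2.31 ± 0.16, the mitotic kinase Plk1 by 1.59 ± 0.13, and the cyclin Ccna2 by 2.31 ± 0.20. Of 31 DNA replication genes 26 fell and none rose (median -0.60; interaction negative for 23). Rrm2, the regulated subunit of the enzyme that makes deoxynucleotides, fell by 3.03 ± 0.19 at its brightest probe and by 1.40 at another. Tk1, thymidine kinase, fell by 2.23 ± 0.12, and Mcm3, a subunit of the replicative helicase, by 1.43 ± 0.10. No member of either list differed from air on day 28, where 0.185% of all genes did. Median differences from air were -0.03 for mitosis and 0.02 for replication on day 28, against 1.63 and 0.77 on day 6.

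The promoters of Cdk1, Cdc20, Prc1 and Ccnb2 are shown because mitosis genes moved together and these 4 hold both elements searched for. CCAAT, the box bound by the factor NF-Y, occurred on either strand in 16 of the 21 promoters found for the list (76.2%) and in 34.3% of all promoters. The cell cycle homology region (CHR), searched as TTTGAA or TTCGAA, occurred in 8 (38.1%) and in 17.3% of all. The 150 bases before each start are printed on the gene's strand, 5′ to 3′, from GRCr8, with both elements in capitals: Cdk1 at chr20:19265143-19265292 (plus strand), Cdc20 at chr5:137255800-137255949 (minus strand), Prc1 at chr1:143659331-143659480 (plus strand) and Ccnb2 at chr8:79981659-79981808 (minus strand).
Cdk1: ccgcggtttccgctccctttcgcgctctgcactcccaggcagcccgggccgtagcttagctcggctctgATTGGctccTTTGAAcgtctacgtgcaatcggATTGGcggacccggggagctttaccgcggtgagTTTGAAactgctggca
Cdc20: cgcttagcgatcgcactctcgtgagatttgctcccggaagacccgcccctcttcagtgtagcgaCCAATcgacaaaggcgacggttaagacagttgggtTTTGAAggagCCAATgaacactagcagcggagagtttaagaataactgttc
Prc1: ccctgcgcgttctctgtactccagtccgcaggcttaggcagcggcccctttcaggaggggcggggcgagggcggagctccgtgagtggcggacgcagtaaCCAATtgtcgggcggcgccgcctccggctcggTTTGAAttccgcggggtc
Ccnb2: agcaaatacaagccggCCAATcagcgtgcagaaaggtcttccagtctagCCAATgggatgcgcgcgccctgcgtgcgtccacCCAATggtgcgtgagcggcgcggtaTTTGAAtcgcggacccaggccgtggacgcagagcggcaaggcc
Cdc20, which activates the exit from mitosis, fell by 1.39 ± 0.12, Prc1, which bundles the spindle's midzone, by 1.40 ± 0.15, and Ccnb2, a B-type cyclin, by 1.37 ± 0.20.

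Genes of sterol synthesis fell, and 2 genes of lipid export and uptake rose. Of 29 genes 21 fell and 2 rose (median -0.65, 0.09 in air; interaction negative for 17). Idi1, an isomerase of the mevalonate pathway, had 0.06, 0.08, -0.08, 0.04 and -0.13 on day 6 and -1.43, -1.46, -1.73, -1.03 and -1.32 on day 28 and fell by 1.39 ± 0.13 (adjusted p = 1.89e-09). The 2 days did not overlap. Fdps, the next enzyme of the pathway, fell by 1.64 ± 0.17, Hmgcs1, an early enzyme, by 1.18 ± 0.18, and Dhcr7, which makes cholesterol, by 1.09 ± 0.11. Pmvk fell by 0.86 ± 0.07, but also in air (-0.30 ± 0.07; adjusted p = 0.0511 in limma's fit without air rat 4). Abcg1, which exports cholesterol from macrophages, rose by 1.91 ± 0.28 (adjusted p = 6.07e-06), and Lpl, lipoprotein lipase, by 1.18 ± 0.18. The regulator Srebf2 changed by 0.16 and did not pass.

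The promoters of Idi1, Fdps and Mvd, 3 enzymes of the mevalonate pathway that fell together, are shown for their CCAAT boxes, in capitals. The box occurred in 13 of the 17 promoters found for this list (76.5%), a share like that of the mitosis genes, against 34.3% of all. The letters TCACNCCAC, a form of the sterol regulatory element, occurred in 0 of the 17 and in 0.976% of all; other forms of that element were not searched. The 150 bases before each start are on the minus strand of GRCr8, read 5′ to 3′: Idi1 at chr17:66547525-66547674, Fdps at chr2:176804817-176804966 and Mvd at chr19:67414975-67415124.
Idi1: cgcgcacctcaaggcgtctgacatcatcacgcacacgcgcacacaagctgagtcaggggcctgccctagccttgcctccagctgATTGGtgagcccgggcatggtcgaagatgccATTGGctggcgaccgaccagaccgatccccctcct
Fdps: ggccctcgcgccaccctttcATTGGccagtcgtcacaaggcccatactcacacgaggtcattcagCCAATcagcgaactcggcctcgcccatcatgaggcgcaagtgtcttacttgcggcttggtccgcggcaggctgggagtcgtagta
Mvd: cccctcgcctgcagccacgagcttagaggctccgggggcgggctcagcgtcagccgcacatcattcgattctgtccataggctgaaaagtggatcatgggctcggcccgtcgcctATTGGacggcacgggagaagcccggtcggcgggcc
Mvd fell by 1.10 ± 0.12 over the 22 days.

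Stress and metal handling genes moved in part. Of 24 Nrf2 target genes 11 fell and 1 rose (median -0.22), while in air 3 fell and the median was -0.15. The interaction was negative for 7 of them and positive for 3. Slc7a11, the cystine importer, fell by 3.22 ± 0.27 (adjusted p = 4.59e-10; above background in 3 of 5 rats on day 28), and Hmox1, heme oxygenase, went from 0.83, 0.32, 2.07, 1.77 and 2.58 to -1.47, -1.33, -1.41, -1.68 and -1.35 (-2.96 ± 0.29, adjusted p = 6.77e-09). The day 6 rats differed widely in Hmox1, and all lay above the day 28 rats. Nqo1 and Gclc, classical targets, changed by -0.23 and -0.12 and did not pass, and Gsta4, a glutathione transferase, rose by 1.24 ± 0.16. Among 21 genes of metal handling 7 fell and 3 rose (median -0.11, -0.06 in air), the latter near the 13.6% of all genes. The interaction was negative for 4 of these and positive for 2. The metallothioneins Mt2A and Mt1 fell by 2.53 ± 0.30 and 2.48 ± 0.22 (adjusted p = 1.93e-07 and 8.53e-10). Mt2A also fell in air, by 1.28 (adjusted p = 0.0200), so that its interaction was -1.25 ± 0.43 (adjusted p = 0.0440); without air rat 4 the air change of -1.14 did not pass (adjusted p = 0.0518 in limma's fit) and the interaction was -1.40 (adjusted p = 0.0256). Cp, the copper carrier ceruloplasmin, fell by 0.90 ± 0.13 while it rose in air (0.49 ± 0.13, adjusted p = 0.0363); without air rat 4 the air change was 0.48 and did not pass (adjusted p = 0.0558 in limma's fit). The copper exporter Atp7b (0.07) and the copper chaperone Ccs (-0.11) did not pass, and after centring on the median no gene of the list rose.

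Genes of protein turnover fell. Of 25 proteasome genes 23 fell and none rose (median -0.63, -0.15 in air), but the interaction passed for only 8. The immunoproteasome subunits Psmb8, Psmb10 and Psmb9 fell by 2.01 ± 0.24, 0.87 ± 0.09 and 0.84 ± 0.12. The constitutive subunit Psma5 fell by 0.85 ± 0.09 without overlap between the days, and its change in air was -0.04. Lysosomal genes gave 16 lower and 1 higher of 27. Ctsz, a cathepsin, fell by 1.66 ± 0.28, Npc2, a carrier of cholesterol in the lysosome, by 1.19 ± 0.18 and Grn, progranulin, by 1.05 ± 0.14; Lipa, the lysosomal lipase, rose by 0.69 ± 0.17. The unfolded protein and heat shock list gave 11 lower of 21 (median -0.44, -0.19 in air), with Pdia6, a protein folding enzyme, at -0.83 ± 0.15. For this list the interaction passed for 4 members in the negative and 2 in the positive direction. Of 21 glycolysis and hypoxia genes 10 fell and 3 rose; the hexokinase of myeloid cells Hk3 fell by 2.23 ± 0.26, the lactate exporter Slc16a3 by 1.35 ± 0.12, and Vegfa, the endothelial growth factor, rose by 1.35 ± 0.18. Respiratory chain genes gave 8 lower of 27, but their median of -0.24 was close to that in air (-0.26). Their interaction passed for 0 members in the negative and 2 in the positive direction, and for 0 in either direction without air rat 4.

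**Figure D3:**
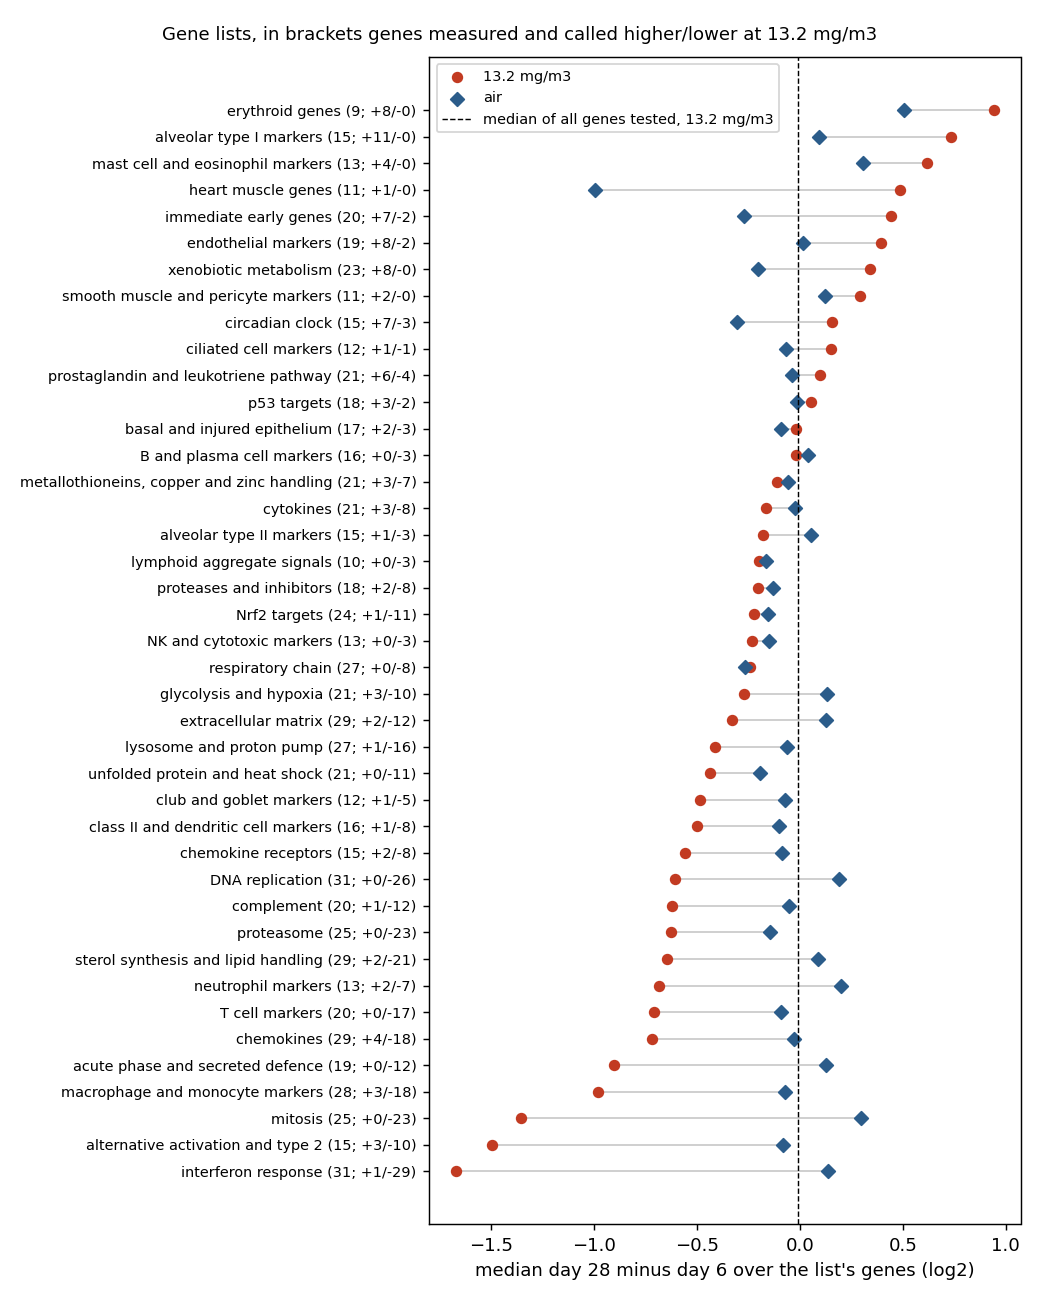
Median change from day 6 to day 28 (log2, horizontal axis) over the genes of each of 41 lists (vertical axis, with the numbers measured and called higher and lower at the high dose), at 13.2 mg/m3 (circles) and in air (diamonds). The interferon list lies farthest to the left at -1.67 and the erythroid list farthest to the right at 0.94; the dashed line is the median of all genes.

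Epithelial markers separated by cell type. Alveolar type I markers rose: 11 of 15 and none fell, with a median of 0.73 against 0.09 in air; the interaction was positive for 6, and after centring on the median 5 rose. Cav1 (caveolin 1), also abundant in endothelium, was at 0.89, 1.20, 0.46, 0.62 and 0.06 on day 6 and 2.13, 2.05, 2.06, 2.31 and 2.11 on day 28, without overlap, and rose by 1.49 ± 0.14 (adjusted p = 4.13e-09). Akap5, a kinase anchor, rose by 1.48 ± 0.18 and Emp2, a membrane protein, by 0.93 ± 0.14. Ager and Aqp5, the most specific markers of these cells, changed by 0.24 and 0.20 and did not pass, although Ager passed in 6 of 19 alternatives, among them limma's fit to the authors' deposited values, to Cy5 alone and with slide as a block (adjusted p = 0.0121, 0.0335 and 0.0401). Aqp5 passed in limma's fit to Cy5 alone (0.42, adjusted p = 0.0304). Alveolar type II markers moved little: 3 of 15 fell and 1 rose, and the surfactant genes Sftpc, Sftpb and Sftpa1 did not pass (0.27, 0.16 and -0.19); Sftpa1 passed with Cy5 alone (-1.12, adjusted p = 0.000225) and with the slide as a block (-0.29, adjusted p = 0.00686) in limma's fit. Ctsh and Napsa, the proteases that process surfactant protein B, fell by 2.00 ± 0.29 and 0.71 ± 0.16, and Etv5, a transcription factor of type II cells, rose by 1.18 ± 0.14.

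In the airways 5 of 12 club and goblet markers fell. Besides Bpifb1, the claudin Cldn10 fell by 1.30 ± 0.21 and the mucin Muc20 by 0.79 ± 0.11, the latter above background in 1 of 5 rats on day 28. Scgb1a1, the defining secretory protein of club cells, rose by 0.46 ± 0.14 (adjusted p = 0.0117), but was at -0.03 (adjusted p = 0.892) after centring on the median. Ciliated cell markers gave 1 lower, Tekt2 (-0.97 ± 0.12), and 1 higher, Tppp3 (1.18 ± 0.18), of 12; Foxj1, their master regulator, changed by -0.06 and did not pass. Among 17 genes of basal and injured epithelium the growth factors Areg and Ereg and the receptor Plaur fell (-1.48 ± 0.39, -0.91 ± 0.25 and -0.85 ± 0.15), Tp63, the basal cell factor, and Itgb6 rose (0.49 ± 0.10 and 0.56 ± 0.12), and keratins 5, 8 and 18 did not pass. After centring on the median Tp63 and Itgb6 did not pass (adjusted p = 0.156 and 0.13 in limma's fit), nor did Tp63 as the mean of its probes (adjusted p = 0.0705). With that centring no gene of this list rose, and a second probe of Tp63 changed by 0.15 and did not pass in the main scaling.

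Endothelial markers rose in 8 of 19 and fell in 2 (3 and 2 after centring on the median). Their median was 0.39 against 0.02 in air, where 1 member rose. The interaction was positive for only 3 members and negative for 2. Esm1, a proteoglycan of endothelial tip cells, was at 0.08, 0.14, -0.77, -0.08 and -0.43 on day 6 and 2.02, 2.04, 2.21, 1.89 and 2.14 on day 28, near the air means of 2.14 and 2.19, and rose by 2.28 ± 0.26 (adjusted p = 6.30e-08). Apln, a peptide that guides vessel growth, rose by 0.92 ± 0.18, and Kdr, the main receptor of Vegfa, by 0.56 ± 0.18. Sele, the adhesion molecule that inflamed endothelium presents to leukocytes, fell by 0.87 ± 0.13 and was above background in 4 of 5 rats on day 28; Vcam1, another such molecule, fell by 0.38 ± 0.14. Cdh5, the defining junction protein, changed by 0.29 and did not pass, but passed with Cy5 alone (0.59, adjusted p = 0.0018) and without rat 81 (0.48, adjusted p = 0.0372) in limma's fit. Smooth muscle and pericyte markers gave 2 higher of 11, Mylk (0.73 ± 0.12) and Pdgfrb (0.57 ± 0.17), near the 13.6% of all genes, and no interaction passed; 5 were higher with Cy5 alone and in the deposited values and 1 after centring on the median. Genes of xenobiotic metabolism rose in 8 of 23 (5 after centring on the median, with 1 lower), led by Cyp4b1 (1.48 ± 0.23), Fmo1 (1.16 ± 0.23) and Cyp2e1 (1.07 ± 0.23), 3 oxidizing enzymes. In air -0.20 was the median of that list and the interaction was positive for 7 members, with a median of 0.70. Without air rat 4 these medians were -0.11 in air and 0.42 for the interaction, which was positive for 7 members and negative for 1.

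Matrix genes fell in part. Of 29 matrix genes 12 fell and 2 rose (median -0.33, 0.13 in air). Cthrc1, secreted by activated fibroblasts, was at 3.97, 3.29, 3.92, 3.33 and 3.05 on day 6 and 1.07, 0.71, 1.90, 1.66 and 0.99 on day 28 and fell by 2.25 ± 0.24 (adjusted p = 1.90e-08). Tgfbi and Fn1 (fibronectin) fell by 2.18 ± 0.16 and 1.05 ± 0.12, and the collagens Col1a1 and Col3a1 by 0.85 ± 0.26 and 0.68 ± 0.18. None of these differed from air on day 28, where 0.185% of all genes did. A second probe of Fn1 changed by -0.28 and did not pass (adjusted p = 0.159 in limma's fit of all probes). Among 18 proteases and inhibitors 8 fell and 2 rose. Mmp7 (matrilysin, an epithelial protease) was not well above background in any rat of day 28 and at least 11.4-fold higher on day 6 in normalized Cy5 signal (10.1-fold in the ratio to the reference), with levels of 2.19, 1.49, 4.21, 2.98 and 4.28 in the day 6 rats. Timp1, an inhibitor of such proteases, fell by 1.90 ± 0.18.

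The largest increases were smaller than the largest decreases. Serpinb10, a serpin of leukocytes, had -2.43, -2.50, -2.02, -1.96 and -2.13 on day 6 and 0.75, 1.56, 1.71, 1.60 and 0.62 on day 28 and rose by 3.46 ± 0.35 (adjusted p = 1.31e-08). Pparg, the nuclear receptor that maintains alveolar macrophages, had -1.91, -1.997, -2.46, -1.78 and -1.84 and 0.76, 0.74, 0.75, 0.88 and 0.83 and rose by 2.79 ± 0.20 (adjusted p = 2.48e-11). On day 28 all 5 rats lay above the air mean of -0.09, but the difference from air did not pass (0.89 ± 0.20, adjusted p = 0.0592). Pla2g2d, a secreted phospholipase of dendritic cells and macrophages, rose by 2.64 ± 0.24, Naaa, an amidase of lipid signals, by 2.26 ± 0.30, and Gsn, the actin-severing gelsolin, by 1.97 ± 0.16. Tac1, which encodes substance P, a transmitter of sensory nerves, was not well above background in any rat of day 6 and at least 6.03-fold higher on day 28 in normalized Cy5 signal (5.43-fold in the ratio to the reference); a second probe rose by 0.75. The leukotriene enzyme Alox5 rose by 1.29 ± 0.16 and the clock repressor Nr1d1 by 1.84 ± 0.19 (adjusted p = 9.57e-09), against 0.01 ± 0.19 in air. Immediate early genes rose in 7 of 20 and fell in 2: Ier2 rose by 1.03 ± 0.20 and Klf4 by 0.95 ± 0.17, and the nuclear receptor Nr4a3 fell by 1.94 ± 0.20. Of 18 p53 target genes 3 rose and 2 fell, close to or below the 13.6% and 20.0% of all genes, with a median of 0.06 that was -0.10 after centring on the median; Perp, an adhesion protein, rose by 1.35 ± 0.44 and Bax, which promotes cell death, fell by 0.63 ± 0.10. Of 21 prostaglandin and leukotriene genes 6 rose, Pla2g2d and Alox5 among them, and 4 fell, with Pla2g2a, another secreted phospholipase, at -0.96 ± 0.35.

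Genes of red blood cells and 1 heart muscle gene rose. Erythroid genes rose in 8 of 9 (median 0.94), Hbb-b1, a beta-globin gene, by 1.501 ± 0.27 and Hba-a3 by 1.41 ± 0.21; globin genes are near-identical copies, so their probes may read each other. In air the median of this list was 0.51, and the interaction passed for Hba-a3 only (0.86 ± 0.30, adjusted p = 0.0448); without air rat 4 it passed for no gene of the list (Hba-a3 0.87, adjusted p = 0.0522 in limma's fit). Of 11 heart muscle genes Cox8b, a subunit of the respiratory chain in muscle, rose (2.11 ± 0.37, adjusted p = 5.83e-05), and the others did not pass. In air their median was -0.997, which was -0.0046 without air rat 4 of day 6, whose mean level for the list was 4.52 where the other air rats lay between -0.81 and 0.11. At the high dose this mean lay between -0.99 and -0.40 on day 6 and between -0.69 and 1.18 on day 28, where rat 83 was highest. The part of blood or heart tissue in other results was not tested.

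Some genes moved over the same 22 days in air. Of the 3681 genes lower on day 28 at the high dose 67 were also lower in air and 35 higher; of the 2499 higher genes 144 were also higher in air and 20 lower. Without air rat 8 of day 28, 2494 genes passed in air in place of 541, and without any other air rat 180 to 432. Cry1, a repressor in the core of the circadian clock, fell alike in both: by 1.03 ± 0.10 at the high dose and by 1.05 in air, with an interaction of 0.02 ± 0.14. Atp1b1, a subunit of the sodium pump, fell by 1.49 ± 0.19 and in air by 1.02 (interaction adjusted p = 0.232), and Hbb-bs and Acsm5 rose by 1.92 ± 0.28 and 1.62 ± 0.20 and in air by 1.28 ± 0.28 and 1.34 ± 0.20. Nampt, the enzyme that makes the precursor of NAD, and Mgp, an inhibitor of calcification, fell in air (0.38 and 0.55 on the log2 scale) and further at the high dose (-1.28 and -1.19; interaction adjusted p = 3.59e-06 and 0.0158). Other genes went opposite ways. Emilin1, a glycoprotein of elastic fibres, had 0.34, -0.06, 0.50, 0.26 and 0.36 on day 6 and -0.57, -0.64, -0.44, -0.58 and -0.43 on day 28 at the high dose, and -1.12, -1.12, -1.14, -1.29 and -1.10 and 0.13, -0.27, -0.19, 0.04 and -0.05 in air. It fell by 0.81 ± 0.10 where it rose in air by 1.08 ± 0.10, an interaction of -1.89 ± 0.14 (adjusted p = 1.89e-10).

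Of the 34 genes that differed from air on day 28, Dbp, Eln, Per2, Bmal1 and Npas2 differed most. Dbp, a clock output factor, had 2.98, 2.72, 2.84, 2.26 and 2.58 in air on day 6 and -0.58, -0.69, -0.66, -0.28 and 0.52 on day 28, a change of -3.01 ± 0.23 (adjusted p = 4.86e-10). At the high dose it had 2.18, 2.24, 1.35, 1.25 and 0.83 on day 6 and 2.29, 2.15, 2.01, 2.58 and 2.50 on day 28 (0.73 ± 0.23, adjusted p = 0.0125), so that all high dose rats of day 28 lay above all air rats of that day, by 2.64 ± 0.23 (adjusted p = 5.39e-08). The call of the high dose change itself was lost after centring on the median, in a fit to the compared groups alone and without rat 79 (adjusted p = 0.294, 0.0551 and 0.0578). Per2, a repressor of the clock, fell by 0.76 ± 0.15 at the high dose and by 2.50 in air and lay above air on day 28 by 1.16 ± 0.15 (adjusted p = 0.000108). Npas2, an activator, rose in both (1.48 ± 0.16 and 2.18 ± 0.16) and lay below air on day 28 by 1.01 (adjusted p = 0.00183) at its brightest probe, while a second probe changed by 0.01. Of 15 clock genes 7 rose and 3 fell at the high dose, 4 rose and 6 fell in air, and the interaction was positive for 7 and negative for 3. Bmal1 and Eln were picked out after their values were seen. Bmal1, the partner of Clock, rose in air by 1.85 ± 0.16 and changed by 0.04 at the high dose, and differed from air on day 28 by -1.13 ± 0.16 (adjusted p = 0.000308). Eln, the gene of elastin, rose in air from 1.41, 0.85, 0.30, 0.67 and 0.26 to 3.07, 2.66, 2.89, 3.32 and 3.47, while the high dose rats had 2.42, 2.53, 1.02, 2.14 and 0.72 on day 6 and 1.53, 1.56, 1.82, 1.36 and 1.55 on day 28. It differed from air on day 28 by -1.52 ± 0.27 (adjusted p = 0.00853). Dbp, Per2, Npas2, Bmal1 and Eln were called on day 28 in each of 18 alternatives. Without air rat 8, in a fit chosen after seeing the data, 4 clock genes lay above and 2 below air on day 28. No chemokine, interferon, mitosis or DNA replication gene of the lists passed in that fit. Of all 18411 genes, 89 lay above and 237 below air in it. The sources used here do not give the hour at which lungs were taken, and its part in these differences was not tested.

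Of the other genes that changed at the high dose and differed from air on day 28, Duoxa1, which matures the hydrogen peroxide producing enzyme Duox1, fell by 0.83 ± 0.16 from 0.65, 0.52, 0.67, 0.70 and 0.89 to -0.13, -0.33, -0.21, -0.00 and -0.05 and still lay above air by 0.90 ± 0.16 (adjusted p = 0.00838); it was called in 17 of 18 alternatives. Srd5a1, steroid 5-alpha-reductase, fell by 0.89 ± 0.12 and lay above air by 0.70 ± 0.12 (adjusted p = 0.00838), in air falling by 0.43 (adjusted p = 0.0716 in limma's fit without air rat 4). Mfsd2a, a lipid transporter, and Gde1 lay above air by 0.84 ± 0.17 and 0.69 ± 0.13, but also fell in air, with interactions of -0.01 ± 0.24 and 0.28 ± 0.18 that did not pass; the high dose change of Gde1 passed in 7 of 19 alternatives. Below air lay Adamts9, a protease (-1.001 ± 0.19), Smtnl2 (-0.68 ± 0.13), Pde2a, a phosphodiesterase (-0.66 ± 0.12), Rhoc (-0.55 ± 0.10) and Armcx2 (-0.51 ± 0.10), each called against air in 13 or 14 of 18 alternatives. The high dose changes of Smtnl2, Pde2a and Armcx2 did not pass after centring on the median (adjusted p = 0.326, 0.57 and 0.159 in limma's fit). Those of Adamts9 and Rhoc did not pass with the deposited values (adjusted p = 0.0651 and 0.0853 in limma's fit). A second probe of Smtnl2 changed by 0.10 and did not pass. Pabir2, not well above background on day 6 and at least 2.62-fold higher on day 28 in normalized Cy5 signal (2.42-fold in the ratio to the reference), Tspan4 and Emilin1 changed sides relative to air, as did Dbp and Per2. Tspan4 lay below air by 0.51 on day 6 and above it by 0.46 on day 28, where air rats had fallen by 1.40. These 3 calls on day 28 held in 7, 11 and 5 of 18 alternatives.

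**Figure D4:**
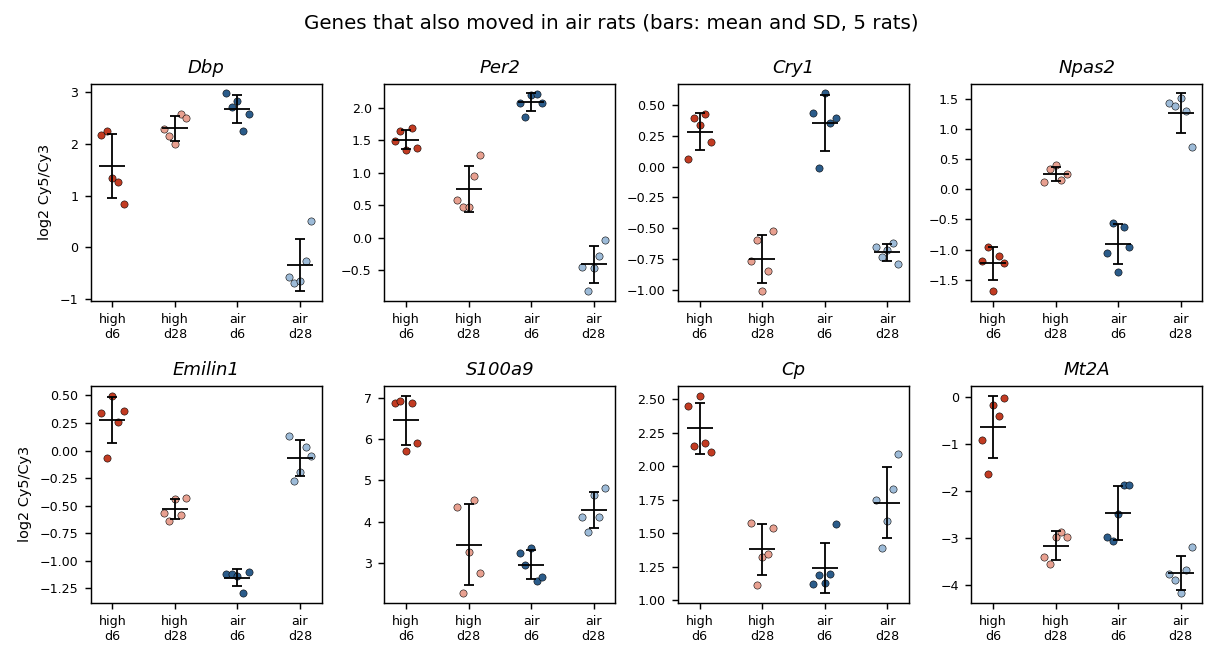
Level of 8 genes that also moved in air rats, in each rat (points; log2 Cy5 over Cy3), at 13.2 mg/m3 and in air on day 6 and day 28, with the mean and SD of 5 rats. Dbp fell from 2.68 to -0.34 in air and was 2.31 at the high dose on day 28; Cry1 fell alike in both, and Emilin1, S100a9 and Cp moved opposite ways, though the air changes of S100a9 and Cp did not pass without air rat 4.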

How the data were processed

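Whole lung RNA of 30 rats was measured on 2-colour arrays, 1 array per rat on 4 slides, with the rat's RNA in Cy5 and a common reference in Cy3, without dye swaps; the labels name that reference once as mouse and once as rat RNA. Spot intensities were deposited as extracted by the authors with Agilent Feature Extraction, per the submitters' processing notes. The authors' deposited table of log2 values, whose array medians lay between -0.0314 and -0.00539, served as an alternative; the sources used here do not say how it was normalized. Median spot intensities were background-corrected (normexp, offset 50) and normalized within arrays by loess, with control spots and outliers at weight 0, and spots of a probe were averaged. Of 30367 probes, 20840 with Cy5 well above background on at least 5 of 30 arrays were kept. Each of 18411 genes was represented by its brightest probe on average, of which 11324 have a symbol through RefSeq (GRCr8) and the others keep the array's accession.

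All 6 groups of 5 rats (air, 3.3 and 13.2 mg/m3 on each day) were fitted together with limma 3.58.1 in R 4.3.3, with Benjamini-Hochberg adjustment over all genes tested. The scripts were tested on simulated data. Dim probes have only a bound ("at least N-fold"), taken from Cy5 signals after loess and between-array scaling; it holds for that signal, not for the ratio to the reference. The p-values measure the spread between rats, and the number of arrays limits the precision. Genes were named by rule: the 16 largest decreases and 12 largest increases without overlap, the 3 smallest p-values of each list, the largest changes shared with air, those that differed from air on day 28 or changed sides, and tissue markers. Other list members were chosen after their values were seen. The members and lists were chosen with earlier results of these data known. Some list members are not reported here.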

Additional observations from a re-analysis of the deposited data

Results flagged for a closer look

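In 15 of the 344 groups of 5 rats searched among the named genes, 1 rat lay apart from the other 4 by Dixon's criterion; chance marks about 1 group in 20. On day 6 at the high dose these were rat 76 for Klrk1 (0.70, others 1.44 to 1.70), for Slc26a4 (3.66, others 4.22 to 4.30) and for Nr4a3 (0.38), rat 79 for Alox5 (-1.68) and rat 75 for Cldn18 (5.14). On day 28 they were rat 84 for RT1-A2 (0.44), Smtnl2 (2.15) and Fmo1 (1.76), rat 80 for Orm1 (0.56) and Mcm3 (-1.97), and rat 82 for Cd38 (0.88) and RT1-DMa (1.49). Rat 83 stood apart for Cav1 (2.31), and rat 81 for Mmp7 (-0.12) and Dhcr7 (-2.10).

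The change over time differed between the high dose and air for 3085 genes by the interaction test. Among the named genes that changed in opposite directions in both, it was 3.75 for Dbp, -0.79 for Rhoc, -1.89 for Emilin1, -4.35 for S100a9 and -1.39 for Cp (log2, high dose minus air); the air changes of S100a9 and Cp did not pass without air rat 4 of day 6 (adjusted p = 0.0706 and 0.0558 in limma's fit).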

How the results depend on the processing

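The count of genes changed at the high dose was 2448 with a 1.5-fold minimum and 5139 to 6683 when 1 rat was left out. In a fit to the compared groups alone it was 4454 (1703 higher and 2751 lower), against 6180 in the main fit. For the change in air, 94 genes passed after centring on the median, 1161 in a fit to the compared groups alone, 206 with a 1.5-fold minimum and 180 to 2494 without 1 rat. The interaction passed for 1286 genes after centring on the median, 1958 with a 1.5-fold minimum and 2496 to 3491 without 1 rat. On day 28, 6 genes differed from air after centring on the median, 110 with Cy5 alone, 12 in such a fit, 19 with a 1.5-fold minimum and 11 to 326 without 1 rat. Without air rat 4 of day 6 and air rat 8 of day 28 together, a choice made after seeing the data, 2498 genes passed in air and 3554 in the interaction. Of 172 named genes, 25 changed their call under some alternative, and Scgb1a1 was the only one to reverse (-0.029 after centring on the median). Of 574 list medians recomputed, 516 moved by less than the spread between replicates; 3 medians near 0 changed sign under a scaling: B and plasma cells (0.04 with Cy5 alone), injured epithelium (0.04 with Cy5 alone, 0.06 in the deposited values) and p53 targets (-0.10 after centring on the median). Within the 4 slides, 89.1% to 99.8% of called genes kept their direction, as values with no test. The genes were called from these same rats, so part of that agreement follows from their selection. No paired analysis was possible because the groups compared share no replicate numbers.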

Other observations

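The clock genes and Eln also varied at the lower dose of 3.3 mg/m3, which is given here as values only (mean log2 level, n = 5 rats per group). Dbp was at 2.44 on day 6 and -2.38 on day 28 at the lower dose, against 2.68 and -0.34 in air. Bmal1 was at -1.54 and 0.56, against -1.998 and -0.15 in air. Eln was at 1.71 and 2.75, against 0.70 and 3.08 in air. Nr1d1 on day 28 was at -0.77 at the lower dose, 1.13 in air and 1.93 at the high dose.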
